A study of Oryzias latipes with 24 samples.

Results

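The skeletal genes sox9 (IGDB25282), matn1 (IGDB12731) and col10a1 (IGDB21088) were followed through the development of medaka (Oryzias latipes), a small egg-laying teleost. They are 3 of the 26549 genes in the deposited expression table. They were taken by identifier, as a regulator, a cartilage matrix gene and a bone matrix gene, and every library of the time course was used. Messenger RNA was measured in whole embryos at 11 stages, which run from cleavage (stage 6) through blastula (stage 11), gastrula (stage 15) and somite stages (stages 19 and 25) to late embryos (stages 29, 32, 36, 38 and 40) and to stage 41, read here as the larva. Each stage holds 2 libraries. Of the 22 libraries, 20 come from the inbred strain Hd-rR, while replicate 2 of stages 40 and 41 is labelled d-rR / Qurt, so that strain and replicate number cannot be told apart at these stages. Many synchronous embryos went into each stage, so a library averages over a pool, and an SD is a spread between libraries and not between fish.

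Sox9 is the transcription factor that directs mesenchyme into cartilage, where it acts with Sox5 and Sox6 on the genes of the cartilage matrix. It also works outside the skeleton, in neural crest, glia, inner ear and gonad. Matrilin 1, the product of matn1, is a secreted protein that links collagen fibrils with proteoglycans in cartilage. Collagen X, the product of col10a1, belongs to hypertrophic cartilage in mammals, whereas in teleosts osteoblasts, the cells that make bone, express the gene as well.

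The 3 gene models lie on different chromosomes, in the coordinates of the study's gene models. The model of sox9 spans bases 10698984 to 10702657 of chromosome 8 on the plus strand, with 1 transcript of 3 exons and 3129 bases. RefSeq lists sox9b as its synonym. No other model was given the symbol sox9, sox9a or sox9b, but only 9657 of the 26549 models have a symbol. Whether the table holds another sox9 gene was not examined. The model of matn1 spans bases 21862427 to 21866848 of chromosome 11 on the minus strand, with 1 transcript of 10 exons and 2143 bases. No other model overlaps sox9 or matn1. The model of col10a1 spans bases 21444788 to 21449990 of chromosome 24 on the plus strand, with 1 transcript of 3 exons and 2636 bases. It lies inside an intron of nt5dc1 (IGDB21087), which has the opposite strand and shares 0 exonic bases with it. The level of nt5dc1 stayed between 2.48 and 17.9 TPM in all libraries and was 7.45 and 8.53 TPM at stage 41, where col10a1 was highest.

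Levels are given as TPM, a unit that corrects for transcript length and scales every library to a common total, so that levels of different genes can be set side by side. The columns sum to between 980148 and 1000000 TPM. TPM keep no read depth, so the depth of each library is unknown, and no counting interval can be given. The Spearman rho between the libraries of a stage, over genes, lay between 0.915 and 0.984. Of 17 tested marker genes of organs such as heart, lens, brain, muscle, liver and blood, 1 was at 1 TPM or more in each stage 6 library and 17 in each stage 41 library. The 1 gene at stage 6 was rhob, which the list took only because its symbol is that of rhodopsin with a suffix. The test took in 21179 genes, those that reached 1 TPM in 2 libraries or more, with all 3 skeletal genes among them. They were tested together on log2(TPM + 1), with limma and with Benjamini-Hochberg adjustment over the whole set. A gene is said to rise or fall where the adjusted p is under 0.05 and the log2 change is 1 or more in size. In RNA from whole embryos, fewer cells of a type and less RNA per cell cannot be told apart.

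The genes came up in the order of regulator, cartilage matrix and bone matrix, if the order is read from the main rise of each. The regulator sox9 climbed from stage 15 to stage 29 and was highest at stage 32, with a mean of 118 ± 19.2 TPM (SD, n = 2). The cartilage gene matn1 rose between stages 32 and 36 and was highest at stage 38, at 585 ± 7.57 TPM. The bone matrix gene col10a1 stayed at low levels until stage 40 and reached 404 and 1933 TPM in the stage 41 libraries. All 3 genes varied over the 11 stages, with adjusted p of 1.65e-11 for sox9, 6.90e-12 for matn1 and 7.21e-09 for col10a1 in limma's F test, which 92.7% of tested genes passed. Of the 55 pairs of stages, sox9 differed in 38, matn1 in 31 and col10a1 in 33. Over all pairs together 39.5% of the tests across genes were called, and the share in a pair ran from 0.00472 to 71.3%.

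**Figure D1:**
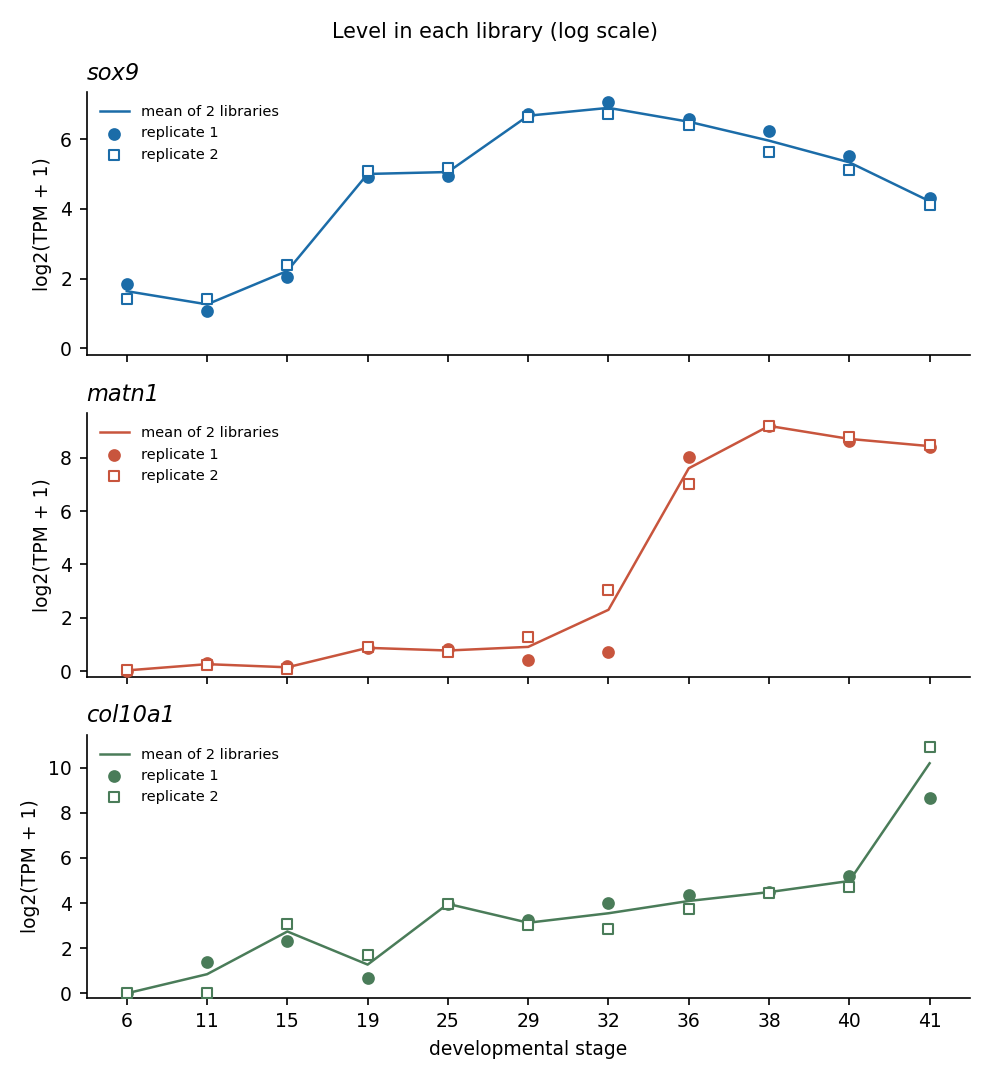
Level of sox9, matn1 and col10a1 in each library, as log2(TPM + 1) on the vertical axes, against developmental stage. Circles are replicate 1, squares replicate 2 and lines the mean of the 2 libraries. The sox9 points are highest at stage 32 (132 and 104 TPM), those of matn1 at stage 38 (579 and 590 TPM) and those of col10a1 at stage 41 (404 and 1933 TPM).

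Up to and including the gastrula sox9 was low. It stood at 2.56 and 1.66 TPM at stage 6, at 1.11 and 1.67 TPM at stage 11 and at 3.09 and 4.23 TPM at stage 15. The libraries of stages 6 and 11 overlapped, and those of stage 15 lay above both. The change from stage 11 to 15 was 0.96 on the log2 scale (SE 0.285, limma adjusted p = 0.0123), which is under the minimum size. Without replicate 2 of stage 11 it was 1.13, and without replicate 1 of stage 15 it was 1.14, past that minimum (limma adjusted p = 0.018 and 0.0224).

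The first rise of sox9 came with the somites. At stage 19 its level was 29.3 and 32.6 TPM, above both stage 15 libraries, a log2 change of 2.79 (SE 0.285, limma adjusted p = 3.24e-06). At this step 9.85% of all tested genes rose. A plateau followed, with 29.7 and 34.7 TPM at stage 25, a range that overlaps that of stage 19.

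A further rise of sox9 took it to 103.5 and 98.0 TPM at stage 29, a log2 change of 1.62 (SE 0.285, limma adjusted p = 0.00121), at a step where 7.22% of tested genes rose. Both stage 29 libraries lay far above those of stage 25. The level was 131.5 and 104.3 TPM at stage 32, above stage 29 in both libraries by a small margin (log2 change 0.22, adjusted p = 1). At its highest stage, 1076 genes of the table had a higher mean than sox9.

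From stage 32 on, sox9 came down in small steps whose libraries did not overlap. It stood at 94.6 and 83.9 TPM at stage 36, at 73.6 and 48.3 TPM at stage 38 and at 45.0 and 33.6 TPM at stage 40. No single step among these passed the test (log2 changes of -0.39, -0.57 and -0.61, adjusted p = 0.654, 0.273 and 0.681). Over the whole interval from stage 32 to 40 sox9 fell by 1.57 on the log2 scale (limma adjusted p = 0.000515), in a comparison that called 28.3% of tested genes.

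In the larva sox9 was at 19.02 and 16.2 TPM, below both stage 40 libraries. This was a fall by 1.11 on the log2 scale (SE 0.285, limma adjusted p = 0.0115), at a step where 9.71% of tested genes fell. The median of all genes moved by -0.22 at the same step. The fall is close to the minimum size and to the threshold: it was -0.96 with a pseudocount of 5 and -0.88 after median-of-ratios scaling, and without replicate 1 of stage 40, without replicate 2 of stage 41 or without both d-rR / Qurt libraries it was -0.90, -0.99 and -1.20 (adjusted p = 0.109, 0.0918 and 0.108).

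Put in order, the stage means of sox9 ran from stage 32 (118 TPM) through 29, 36, 38, 40, 25, 19, 41, 15 and 6 to 11 (1.39 TPM). Only the neighbours 41 and 15 in this order differed by the test, with a log2 difference of 2.00 (limma adjusted p = 1.08e-05) and 57.8% of tested genes called between these stages. The libraries overlapped between stages 40 and 25, between 25 and 19 and between 6 and 11. The larval level lay between those of the somite embryo and the gastrula.

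The cartilage gene matn1 was close to 0 for most of development. It was listed at 0 and 0.0416 TPM at stage 6, and its highest value up to stage 25 was 0.851 TPM. At stage 29 it stood at 0.348 and 1.41 TPM. At stage 32 the libraries differed widely, at 0.644 TPM in replicate 1 and 7.22 TPM in replicate 2. No step up to stage 32 passed the test, and without replicate 2 of stage 32 the change from stage 29 turned from 1.03 to -0.13 on the log2 scale.

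The rise of matn1 between stages 32 and 36 was the largest change of the 3 genes at any step. The stage 36 libraries held 259.5 and 128.3 TPM, both far above stage 32, a log2 change of 5.64 (SE 0.512, limma adjusted p = 6.35e-06), while 4.12% of tested genes rose at this step. The size rested on the stage 32 libraries: it was 6.80 without replicate 2 and 4.48 without replicate 1 of that stage. The gene moved from 14841 genes with a higher mean at stage 32 to 542 at stage 36.

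The level of matn1 was 579.3 and 590.0 TPM at stage 38, above both stage 36 libraries. That change, 1.67 on the log2 scale (SE 0.512), had an adjusted p of 0.0716 in limma. At this step 3.08% of tested genes rose. With the replicate number as a block the change was again 1.67 and passed (limma adjusted p = 0.0442). It passed without replicate 1 of stage 32 or without replicate 2 of stage 32, which left the change itself as it was (adjusted p = 0.00784 and 0.00795), and it was 1.65 with a pseudocount of 5 and 1.96 after median-of-ratios scaling, past the threshold in both.

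Unlike sox9, matn1 kept a high level into the larva. It stood at 398.9 and 435.1 TPM at stage 40 and at 338.6 and 352.5 TPM at stage 41. Libraries of successive stages did not overlap and went down, yet neither step passed the test (log2 changes of -0.49 and -0.27, adjusted p = 0.964 and 0.802). The SE of 0.512 at these steps is the common one over all stages, which takes in the wide gaps at stages 32 and 36. The SDs of matn1 at stages 38, 40 and 41 themselves were 7.57, 25.6 and 9.83 TPM. In the order of its stage means, stages 38, 40, 41 and 36 came first, and the only neighbours that differed by the test were stages 36 and 32. The larval mean was 59.1% of the stage 38 mean for matn1, against 14.9% of the stage 32 mean for sox9.

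The bone matrix gene col10a1 had a small early appearance. It was listed at 0 in both stage 6 libraries and in replicate 2 of stage 11, with 1.60 TPM in replicate 1 of stage 11. At stage 15 it held 3.997 and 7.37 TPM, above every earlier library. This rise of 2.00 on the log2 scale (SE 0.603, limma adjusted p = 0.0133) came at a step where 15.1% of tested genes rose. It was 1.31 without replicate 2 of stage 11 and 1.63 without replicate 2 of stage 15, no longer past the threshold (adjusted p = 0.184 and 0.114), and it was 0.88 with a pseudocount of 5.

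At stage 19 col10a1 was at 0.611 and 2.22 TPM, below both stage 15 libraries. The change of -1.51 on the log2 scale had a limma adjusted p of 0.0928, which became 0.0338 without replicate 1 or without replicate 2 of stage 41 and 0.0384 without both d-rR / Qurt libraries. At this step 8.02% of tested genes fell. At stage 25 the gene stood at 14.5 and 14.7 TPM, again above every earlier library. This rise was 2.78 (SE 0.603, limma adjusted p = 0.00517), with 7.18% of tested genes rising at the step. It was 2.28 without replicate 1 of stage 19 (adjusted p = 0.11), 2.24 after quantile normalization and 1.62 with a pseudocount of 5, in each case not past the threshold.

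Through the stages in which sox9 peaked and matn1 rose, col10a1 held between 6.18 and 35.8 TPM. It held 8.36 and 7.12 TPM at stage 29, 15.2 and 6.18 TPM at stage 32 and 19.6 and 12.5 TPM at stage 36. At stage 38 it was at 21.7 and 21.1 TPM and at stage 40 at 35.8 and 25.1 TPM. No step between stages 25 and 40 passed the test. Over the interval from stage 29 to 40 the gene rose by 1.83 on the log2 scale (limma adjusted p = 0.0216), in a comparison that called 35% of tested genes.

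The main rise of col10a1 came in the larva. Its level was 403.6 TPM in replicate 1 and 1933.2 TPM in replicate 2 of stage 41, both far above the stage 40 libraries, a log2 change of 4.83 (SE 0.603, limma adjusted p = 2.27e-05). At this step 5.22% of tested genes rose, and the median of all genes moved by -0.22. The size rested on the stage 41 libraries. It was 3.70 without replicate 2 and 5.96 without replicate 1 of stage 41, and 3.46 with the d-rR / Qurt libraries of stages 40 and 41 left out (adjusted p = 0.00597), where each of these stages is 1 library that is assumed to vary like the others. The order of its stage means was 41, 40, 38, 36, 25, 32, 29, 15, 19, 11 and 6. Stages 41 and 40 were the only adjacent entries in this order that differed by the test, while some entries farther apart, such as stages 40 and 29, differed as well. Libraries of adjacent entries overlapped from stage 36 down to stage 15 and from stage 19 down to stage 6.

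**Figure D2:**
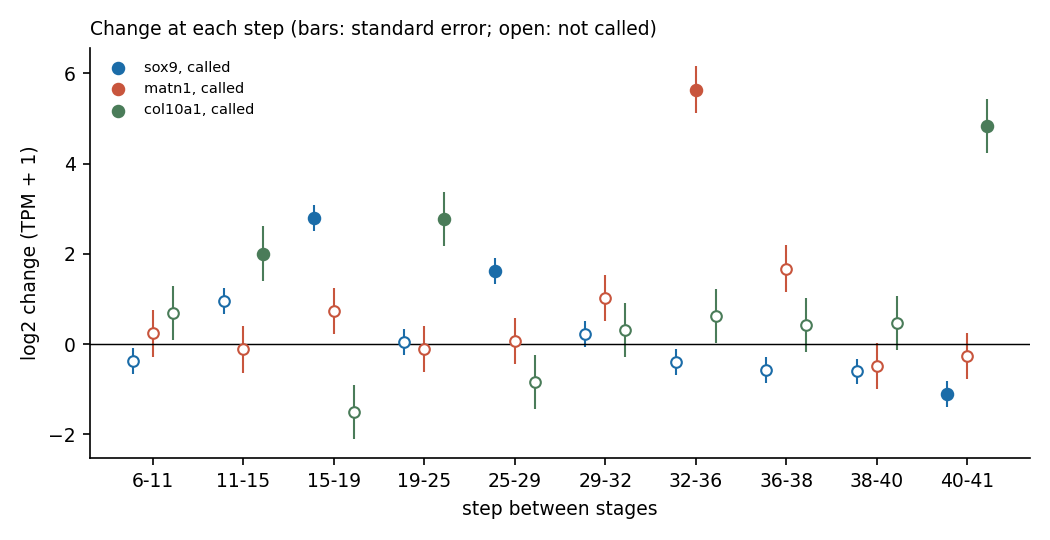
Change of each gene at the 10 steps between adjacent stages, as the log2 change of TPM + 1 from the earlier to the later stage. Points are the fitted changes and bars their standard errors, and filled points passed the test. The largest changes are those of matn1 from stage 32 to 36 (5.64) and of col10a1 from stage 40 to 41 (4.83), while sox9 has 2 rises, at the steps to stages 19 and 29, and a fall at the last step.

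The order of the genes held in each replicate series. Taken as a share of its own highest stage mean, sox9 first reached 10% at stage 19, matn1 at stage 36 and col10a1 at stage 41, and replicate 1 and replicate 2 taken alone gave these same stages. The marks for 50% were stages 29, 38 and 41, again in both series. Median-of-ratios scaling gave the same stages. An absolute mark gave another order: col10a1 was at 1 TPM or more in both libraries from stage 15 and matn1 from stage 36, whereas sox9 was above it from stage 6. With a mark of 5 TPM the stages were 19 for sox9, 25 for col10a1 and 36 for matn1. The genes were chosen with their order known, so it is given as a description and with no test.

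**Figure D3:**
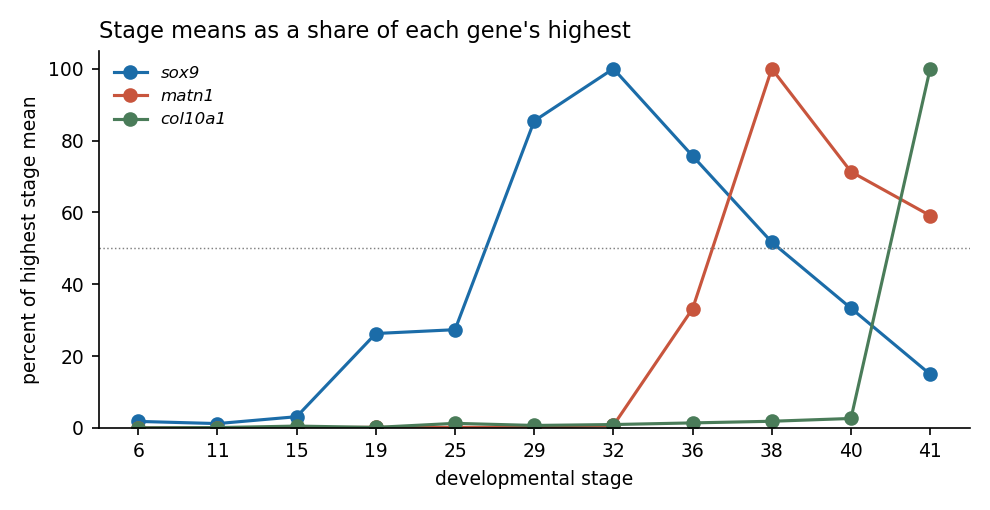
Stage means of sox9, matn1 and col10a1 as a percent of the highest stage mean of the same gene, against developmental stage. The dotted line is 50%, which sox9 first passes at stage 29, matn1 at stage 38 and col10a1 at stage 41. At stage 41 sox9 is at 14.9% and matn1 at 59.1% of its highest mean.

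The balance between the genes changed accordingly. The ratio of the matn1 level to the sox9 level was at most 0.203 in every library up to stage 32. It was 2.74 and 1.53 at stage 36, 7.87 and 12.2 at stage 38, 8.87 and 13.0 at stage 40 and 17.8 and 21.8 at stage 41. After stage 38 the means of sox9 and matn1 were lower at each stage, that of sox9 by the larger factor. The ratio of col10a1 to matn1 lay between 0.0357 and 0.0974 in the libraries of stages 36 to 40, so that matn1 transcripts outnumbered those of col10a1 there. In the larva it was 1.19 in replicate 1 and 5.48 in replicate 2, with col10a1 the more abundant in each.

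At several stages the libraries of matn1 or col10a1 stood apart. The difference between the stage 32 libraries in matn1, 2.32 on the log2 scale with replicate 2 the higher, was exceeded by 0.231% of tested genes at that stage. At stage 36 replicate 1 was the higher, and replicate 2 minus replicate 1 was -1.01, a difference in size that 8.26% of tested genes exceeded. The difference between the stage 41 libraries in col10a1, 2.26 with replicate 2 the higher, was exceeded by 0.685% of tested genes. Other differences of col10a1, replicate 2 minus replicate 1, were -1.38 at stage 11, -1.17 at stage 32 and 0.9995 at stage 19, exceeded in size by 8.25%, 4.75% and 6.76% of tested genes. For sox9 no stage had a difference above 0.60, which was at stage 38.

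Other genes of bone shared that larval difference in direction, and so did genes of some other lists. At stage 41, 15 of 19 tested bone matrix genes, col10a1 included, were higher in replicate 2 and 4 in replicate 1, with a median difference of 0.53 on the log2 scale against 0.13 for all genes. Among them lox, an enzyme that crosslinks collagen, had 11.9 and 75.3 TPM, and entpd5, an enzyme needed for bone mineral in zebrafish, had 52.1 and 119 TPM. The gene sparc, which encodes osteonectin, had 1958 and 1839 TPM and did not share it. Outside bone, replicate 2 of stage 41 was the higher for 8 of 9 osteoclast genes and 8 of 10 genes of gonad somatic cells. It was the higher for 13 of 20 skeletal signal genes, 11 of 20 cartilage genes and 9 of 26 regulators. For markers of organs the number was 7 of 17, of glia, neural crest and ear 5 of 14, and of notochord and sclerotome 3 of 10. The share over all tested genes was not counted. At stage 40, where replicate 2 also carries the d-rR / Qurt label, 15 of the 19 bone matrix genes were higher in replicate 1. Such differences were also seen where both libraries are Hd-rR. At stage 38, 15 of 19 bone, 18 of 20 cartilage and 24 of 26 regulator genes were higher in replicate 1. At stage 19, 8 of 9 osteoclast genes and 9 of 10 gonad genes were higher in replicate 2. The median difference of all genes was -0.11 at stage 38 and 0.29 at stage 19. With 1 library of each strain label at stage 41, the strain and the spread between libraries of 1 strain cannot be told apart for col10a1.

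Genes with a profile like that of a skeletal gene were listed among 7960 genes with a symbol and a highest stage mean of 10 TPM or more, by Pearson's r over the 22 libraries on log2(TPM + 1). These libraries share stages and pools, so r is a description. The closest to sox9 were dab1 (r = 0.983), sox5 (0.983), pax6 (0.982), myo16 (0.980) and fgfr2 (0.979), and 273 genes reached 0.9. Among them Sox5 is the partner of Sox9 on cartilage genes, fgfr2 encodes a receptor for fibroblast growth factors, pax6 is a regulator of eye and brain, and dab1 acts in the migration of neurons. The sox5 level was 42.0 and 30.1 TPM at stage 32 and 7.18 and 8.42 TPM at stage 41.

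The closest to matn1 were rho (r = 0.992), arr3 (0.989), cck (0.983), opn1sw (0.983) and lrtm1 (0.983), with 156 genes at 0.9 or more. Of these, rho, opn1sw and arr3 are genes of photoreceptors. They followed matn1 in the late rise and, at stages 32 and 36, in the direction of the difference between libraries. At stage 32 rho had 2.39 and 9.08 TPM, arr3 0.444 and 6.38 TPM and opn1sw 0.356 and 2.66 TPM, with replicate 2 the higher as for matn1. At stage 36 they had 600.2 and 408 TPM, 189 and 96.1 TPM and 77.5 and 67.9 TPM, with replicate 1 the higher. These genes were picked for likeness over the same libraries, so the shared direction is no separate evidence. At stage 38 rho had 4377 and 3216 TPM and arr3 372 and 267 TPM, with replicate 1 the higher. There matn1 had 579.3 and 590.0 TPM and opn1sw 328 and 540 TPM, with replicate 2 the higher. From stage 38 to 40 the mean of rho went from 3797 to 4674 TPM and that of matn1 from 585 to 417 TPM. In the larva rho was at 1580 and 1132 TPM, while matn1 changed by -0.27 on the log2 scale from stage 40.

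The closest to col10a1 were sash3 (r = 0.945), hck (0.926), ptprc (0.925), tns4 (0.922) and mybpc2 (0.917). Only 10 genes reached 0.9, fewer than for sox9 or matn1. The genes sash3, hck and ptprc belong to blood cells, and ptprc encodes the leukocyte antigen CD45. They had their highest mean at stage 41 as col10a1 did, but their larval libraries lay close together, with 34.0 and 30.6 TPM for ptprc and 19.3 and 18.8 TPM for sash3. Between the skeletal genes r was 0.42 for sox9 with matn1, 0.38 for sox9 with col10a1 and 0.71 for matn1 with col10a1.

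Most skeletal regulators rose with sox9 at stage 19. From stage 15 to 19, 9.85% of all tested genes rose and 8.02% fell, with a median log2 change of 0.0076. Of the 26 tested regulators 15 rose, sox9 among them, and 0 fell, with a median log2 change of 1.17. Examples are twist1, a factor of mesenchyme and neural crest, at 32.8 ± 14.3 TPM after 0.548 ± 0.661 TPM, pax1, a factor of the sclerotome, at 11.4 ± 1.25 TPM after 0.0857 ± 0.121 TPM, and dlx5, a factor of the jaw skeleton, at 24.1 ± 1.91 TPM after 1.3 ± 0.55 TPM (SD, n = 2). With a pseudocount of 5 the count was 9, and without replicate 2 of stage 19 it was 10.

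At the rise of sox9 from stage 25 to 29, 7.22% of all tested genes rose and 1.04% fell. Of the 26 regulators 0 fell and 5 rose, among them sox9, scx, a factor of tendon cells (log2 change 2.19), and sox6a (1.36). This count was 2 without replicate 1 or without replicate 2 of stage 25 and without replicate 2 of stage 29. Of the 26, 11 had their highest stage mean at stage 32, sox9 included, and 8 at stage 36. Of all 21179 tested genes, 1480 were highest at stage 32 and 2133 at stage 36. Correlation of the other 25 regulators with sox9 had a median r of 0.85. For the 20 cartilage matrix genes the median r with sox9 was 0.81, and for the 19 bone matrix genes 0.65. Of the factors of osteoblasts, runx2 reached its highest mean, 8.88 TPM, at stage 41, and sp7, which encodes osterix, was at 16.7 TPM at stage 19, at 1.34 TPM at stage 29 and at 16.4 TPM at stage 41.

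In the larva 4 of the 26 regulators fell, sox9 among them, and 1 rose. At this step 9.71% of all tested genes fell and 5.22% rose. The others that fell were nkx3-2 (log2 change -1.72), pax9 (-1.45) and msx1 (-1.41), factors of jaw and axial skeleton. The count of falls was 2 without replicate 2 of stage 41, and that of rises 0 without replicate 2 of stage 40 or without replicate 2 of stage 41. The median change was -0.53, against -0.22 for all tested genes.

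The tested cartilage matrix genes as a group rose earlier than matn1. From stage 19 to 25, 10 of 20 tested genes rose and 1 fell, while 7.18% of all tested genes rose and 1.79% fell. The median log2 change of the list was 1.10 against 0.15 for all genes. The fibrillar collagen gene col2a1a went from 1.58 ± 1.12 to 42.7 ± 0.449 TPM, col9a1 from 0.0189 ± 0.0267 to 35.6 ± 11.3 TPM and comp, a linker protein of the matrix, from 0.717 ± 0.317 to 24.3 ± 5.56 TPM. From stage 25 to 29 another 10 rises and 1 fall were counted, while 7.22% of all tested genes rose and 1.04% fell. The median was 1.35 against 0.081, and fmod, which encodes fibromodulin, was at 114 ± 14.7 TPM. The latter rises numbered 5 without replicate 1 of stage 25, 6 without replicate 2 of stage 25 and 4 without replicate 2 of stage 29.

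At the rise of matn1 from stage 32 to 36 it was the 1 gene of the 20 that passed the test, at a step where 4.12% of all tested genes rose and 0.269% fell. The median log2 change of the list was 0.64 against 0.025 for all genes. Members that did not pass ran from hapln3, a link protein gene, with a mean of 20.9 TPM at stage 32 and 9.87 TPM at stage 36, to otos, with 33.1 and 175 TPM. The count was 3 without replicate 2 of stage 32 or either library of stage 38, and 2 without either library of stage 29 or 41 or replicate 2 of stage 36, and it was 4 after median-of-ratios scaling. Of the list, 11 genes had their highest mean at stage 36, and matn1 and snorc at stage 38. Of all 21179 tested genes, 2133 were highest at stage 36 and 2310 at stage 38. The correlation of the other 19 cartilage genes with matn1 had a median r of 0.71 and was highest for snorc, which encodes a proteoglycan of cartilage (0.93). With the 19 tested bone matrix genes matn1 had a median r of 0.73 and a highest r of 0.95. The likeness was therefore not particular to the cartilage list.

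The relatives of matn1 differed from it in both timing and level. The gene matn3 had 23.1 TPM at stage 29, when matn1 had 0.881 TPM on average, and was highest at stage 36 at 114 TPM. In the larva matn3 fell to 5.31 ± 0.0288 TPM from 63.1 ± 5.02 TPM, a log2 change of -3.34 (limma adjusted p = 1.25e-05), whereas matn1 changed by -0.27 there. The gene matn2 was highest at stage 36, at 8.83 TPM, and passed the test at no step. Within the cartilage list fmod (-3.49) and col9a1 (-2.47) also fell in the larva, so 3 of 20 fell and 2 rose. At this step 9.71% of all tested genes fell and 5.22% rose. Each of the libraries of stages 40 and 41, left out in turn, left 1 rise.

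Most of the tested bone matrix genes peaked in the larva, as col10a1 did. Of 19 tested genes 11, col10a1 included, had their highest stage mean at stage 41, against 2399 of all 21179 tested genes. From stage 40 to 41, 5 rose, col10a1 among them, and 1 fell, while 5.22% of all tested genes rose and 9.71% fell. The median log2 change of the list was 0.52 against -0.22 for all genes. Beside col10a1 the largest rises were those of a postn gene (IGDB14345), which encodes periostin, from 54.9 ± 43.0 to 304 ± 92.5 TPM, and of col1a2, a chain of the main collagen of bone, from 339 ± 92.8 to 1403 ± 370 TPM. The rises numbered 3 without replicate 2 of stage 40 or without replicate 2 of stage 41, 2 without both d-rR / Qurt libraries and 9 after median-of-ratios scaling.

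The bone matrix list began well before the main rise of col10a1. The gene sparc had 30.4 TPM at stage 19, 191 TPM at stage 25 and 699 TPM at stage 32, and col1a2 had 77.5 TPM at stage 29. From stage 11 to 15, 6 of the 19 rose, col10a1 among them, and 2 fell, while 15.1% of all tested genes rose. The share of all tested genes that fell at that step is not given here. From stage 15 to 19, 8 rose and 0 fell, while 9.85% of all tested genes rose and 8.02% fell. There col10a1 itself changed by -1.51 on the log2 scale, which did not pass the test. From stage 19 to 25, 5 of the 19 rose, col10a1 among them, and 1 fell. At this step 7.18% of all tested genes rose and 1.79% fell. The count of rises in the list was 1 without replicate 1 of stage 19 and 3 without either library of stage 25. From stage 32 to 36, 3 rose and 0 fell, while 4.12% of all tested genes rose and 0.269% fell. The rises were led by lox at 8.68 ± 3.64 TPM after 0.313 ± 0.0430 TPM and by entpd5 at 8.18 ± 1.92 TPM after 0.591 ± 0.573 TPM. Their count was 1 without replicate 1 of stage 32 and without replicate 1 of stage 36.

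**Figure D4:**
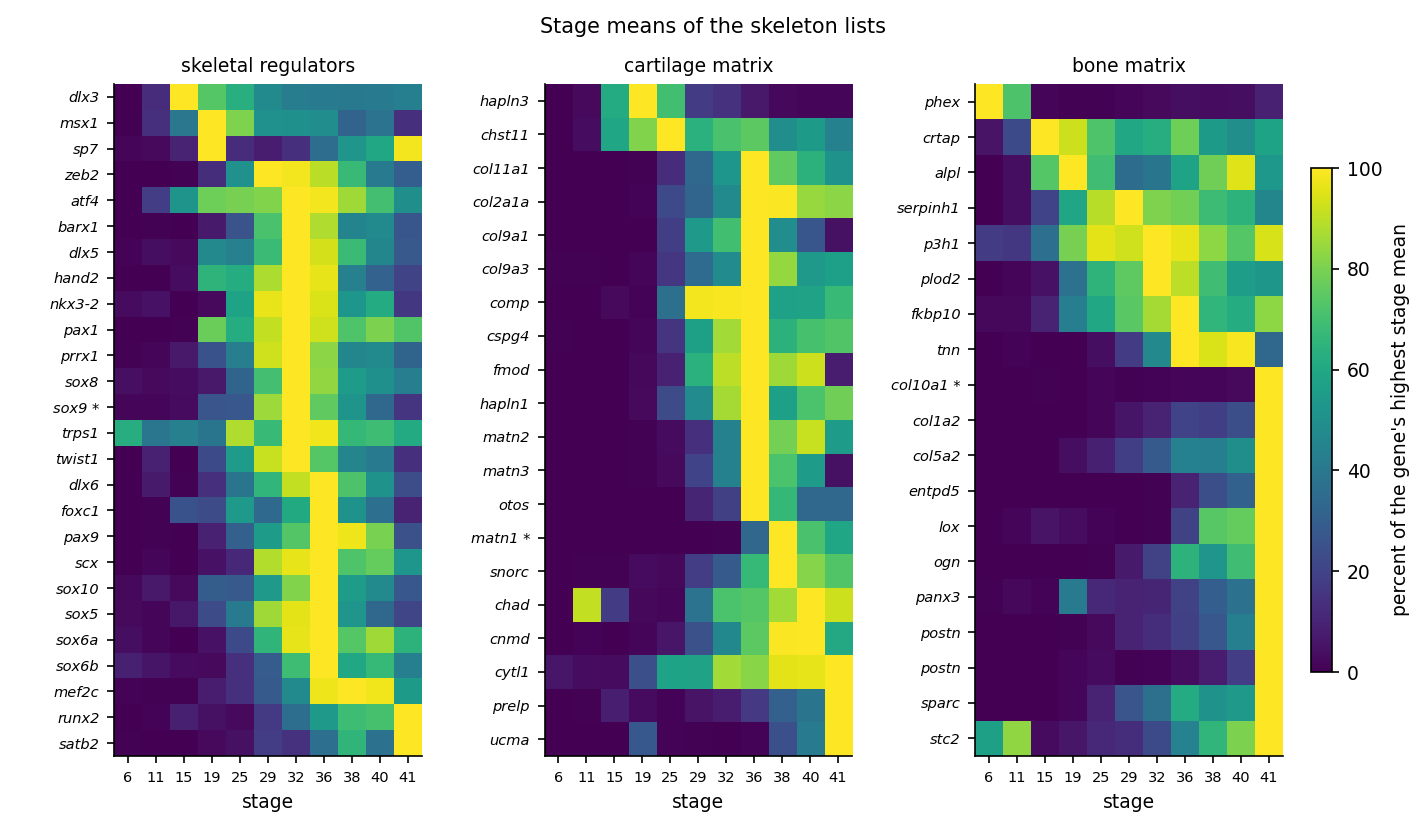
Stage means of the tested skeletal regulators, cartilage matrix genes and bone matrix genes, as a percent of the highest stage mean of each gene (colour), with genes in rows and stages in columns. An asterisk marks sox9, matn1 and col10a1, and postn appears for 2 gene models. The brightest cells lie at stages 32 and 36 for 19 of 26 regulators, at stage 36 for 11 of 20 cartilage genes and at stage 41 for 11 of 19 bone genes.

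Genes of other cells that use sox9 were followed as well. Markers of glia, neural crest and ear, where sox9 is also used, had summed levels of 8.51 to 15.4 TPM at stage 6, 2871 to 3378 TPM at stage 32 and 593 to 728 TPM at stage 41. Most of this sum was fabp7, a gene of radial glia, with a mean of 2718 TPM at stage 32. Of the 14 tested markers 5 were highest at stage 32, against 1480 of all 21179 tested genes. From stage 40 to 41, 7 of these markers fell and 0 rose, while 9.71% of all tested genes fell and 5.22% rose. The 10 markers of somatic cells of the gonad, another site of sox9, had their highest sum at stage 15, at 249 and 297 TPM. It was 134 and 122 TPM at stage 32. Most of the stage 15 sum was gata4, with a mean of 271 TPM there and 26.8 TPM at stage 32. Of these markers 4 had their highest mean at stage 32, and gata4 was the 1 marker highest at stage 15. Of all 21179 tested genes, 1480 were highest at stage 32 and 2324 at stage 15. The part of these cells in the level of sox9 was not tested.

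Osteoclasts, which resorb bone, were represented by 9 tested genes, of which 4 rose and 0 fell from stage 40 to 41. At this step 5.22% of all tested genes rose and 9.71% fell. The rises included mmp9 (24.6 ± 7.31 TPM after 3.15 ± 1.61 TPM), acp5 (60.1 ± 44.8 TPM after 10.1 ± 0.637 TPM) and spi1 (7.31 ± 1.46 TPM after 2.27 ± 0.486 TPM). Other blood cells use these genes as well, and acp5 had its highest mean, 459 TPM, at stage 11. The 5 genes not called included tcirg1 (10.6 TPM after 18.7 TPM), clcn7 (12.7 TPM after 16.8 TPM) and tnfrsf11b (9.83 TPM after 6.69 TPM). The summed level of all 9 genes was 79.9 and 81.5 TPM at stage 40 and 101 and 203 TPM at stage 41. Of the 9 genes 8 were higher in replicate 2 of stage 41, as col10a1 was. At stage 19, where both libraries are Hd-rR, replicate 2 was the higher for 8 of the 9 as well. With both d-rR / Qurt libraries left out, or with a pseudocount of 5, 2 rose. The part of these cells in the larval level of col10a1 was not tested.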

How the data were processed

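The authors made strand-specific poly(A) libraries from whole embryos, sequenced paired reads, mapped them with HISAT2 2.1.0 and quantified genes with StringTie 1.3.3b on their own gene models. The deposited TPM were used as given, in 22 library columns, and the deposited mean columns served only as a check. The genome build is not named in the sources used here. Symbols were assigned by overlap of gene spans with RefSeq (ASM223467v1) at a Jaccard index of at least 0.5, which named 9657 of 26549 models. List genes were found by symbol, so the lists are partial. The 30 regulator entries gave 26 tested models, the 32 cartilage entries 20, the 32 bone entries 19 and the 18 osteoclast entries 9. The gonad table was not used here, since its identifiers did not line up with the embryo table (Spearman rho 0.179 to 0.212 with embryo libraries). Sequences were not analysed here.

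The model was limma 3.58.1 in R 4.3.3 with stage means as coefficients and a variance trend over the mean level. Python 3.11.15, numpy 2.4.6, pandas 2.3.3 and matplotlib 3.10.9 were used, and the fit was tested on simulated data. With 2 libraries against 2, an exact permutation test cannot reach the threshold. Nothing says that the libraries come from separate clutches, so p-values measure the spread between them. Named genes were drawn from the skeletal genes and matn relatives, the 5 closest profiles and the 3 most abundant genes of each skeletal list. Up to 3 called genes with the largest change per list, at steps where a skeletal gene was called, were eligible as well. Not every gene that qualified is named. Other genes were named after their values were seen. They are runx2, sp7, lox and entpd5 at stage 41, sparc and col1a2 at other stages, snorc, fabp7, gata4 and rhob. The genes and lists were chosen with earlier results of these data known. Alternatives were pseudocounts of 0.1 and 5, a replicate block, other filters and scalings, a fit with the variance trend off, no d-rR / Qurt libraries and leaving out each library.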

Additional observations from a re-analysis of the deposited data

How the results depend on the processing

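The rises of sox9 from stage 15 to 19 and 25 to 29, of matn1 from 32 to 36 and of col10a1 from 40 to 41, and all F tests, passed under every alternative run. Elsewhere the sox9 change from stage 11 to 15 passed with a pseudocount of 0.1 (1.34) and median-of-ratios scaling (1.13), and ranged from 0.78 to 1.14 with 1 library left out. Its change from 19 to 25 turned to -0.062 under quantile normalization and -0.13 under median-of-ratios scaling (-0.056 to 0.16 with 1 library left out). Its fall from 40 to 41 was -0.96 with a pseudocount of 5, -0.88 with median-of-ratios scaling and -1.20 without the d-rR / Qurt libraries (-1.31 to -0.90). For matn1, the change from 15 to 19 passed with a pseudocount of 0.1 (2.20), that from 25 to 29 turned to -0.26 under quantile normalization (-0.34 to 0.50), that from 29 to 32 ranged from -0.13 to 2.19, and that from 36 to 38 passed with a pseudocount of 5 (1.65) and median-of-ratios scaling (1.96; 1.17 to 2.18). For col10a1, the change from 6 to 11 ranged from 0 to 1.38, that from 11 to 15 was 0.88 with a pseudocount of 5 (1.31 to 2.69), that from 15 to 19 passed without the d-rR / Qurt libraries (-1.51; -2.005 to -1.01), that from 19 to 25 was 1.62 with a pseudocount of 5 and 2.24 under quantile normalization (2.28 to 3.28), and that from 29 to 32 ranged from -0.28 to 0.89. The causes were not tested.

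Counts of list genes moved with several settings. In the main fit 6 of 19 bone genes rose and 2 fell from stage 11 to 15, where 15.1% of all tested genes rose. With a pseudocount of 5, 3 bone genes rose from 11 to 15, 9 regulators from 15 to 19, 2 bone genes from 19 to 25 (and 0 cartilage genes fell), 3 regulators and 6 cartilage genes from 25 to 29, and 0 regulators, 1 cartilage gene and 2 osteoclast genes from 40 to 41. With a pseudocount of 0.1, 4 bone genes fell from 11 to 15, and from 40 to 41 the rises were 0 regulators, 0 cartilage and 3 bone genes, with 0 bone genes falling. Under quantile normalization 2 bone genes rose from 19 to 25, 1 cartilage gene fell from 32 to 36 and 3 regulators rose from 40 to 41. Median-of-ratios scaling gave 4 cartilage rises from 32 to 36 and 9 bone rises from 40 to 41. A filter of 5 TPM gave 0 regulators rising from 40 to 41. Without the d-rR / Qurt libraries 2 cartilage genes rose from 32 to 36, and from 40 to 41 the rises were 0 regulators, 0 cartilage, 2 bone and 2 osteoclast genes, with 2 regulators falling. With 1 library left out, bone rises from 19 to 25 were 1 to 6 and falls 0 to 1, regulator and cartilage rises from 25 to 29 were 2 to 6 and 4 to 12, cartilage and bone rises from 32 to 36 were 1 to 3 and 1 to 4, and from 40 to 41 regulators had 0 to 1 rises and 2 to 5 falls, cartilage 1 to 2 rises, and bone 3 to 6 rises and 0 to 1 falls. The 5 TPM mark moved the first stage of sox9 to 19 and of col10a1 to 25.

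With the replicate number as a block (replicate block), the matn1 change from 36 to 38 passed (1.67, adjusted p = 0.0442 in limma) and 4 cartilage genes rose from 32 to 36, and no other call of the skeletal genes changed. Deviations of same-numbered libraries correlated at 0.0478 to 0.669 over the 55 stage pairs (median 0.256), above 0.1 in 53 of them, so libraries of the same number tended to deviate together. Since 2 of the pairs were not above 0.1 and no label says what a number stands for, the fit without the block was kept. The 2 planned descriptions of protein and promoter sequences and the level in adult gonads were not run. TPM set no depth, so low values such as those of matn1 before stage 32 carry an unknown counting error.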
